A study of Homo sapiens with 12 samples.

Results

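Expression of 10 genes that are commonly read as endothelial was examined: KDR, PROCR, PECAM1, CDH5, TEK, TIE1, FLT1, VWF, ESAM and EGFL7. They were taken by name from a deposited table of 60583 genes in 12 RNA-seq libraries, and all 10 were found. The names were chosen by earlier scaffold and replicate-number values of the same libraries, or with them in view, so the values of the 10 genes are given here as a description, and the calls among them support nothing beyond it. All 10 passed a filter on low counts that 21298 genes of the table passed. The levels did not bear out the name of the group. EGFL7, FLT1, PROCR and KDR were measured with 40 to 1266 counts in every library, whereas PECAM1, CDH5, TEK, TIE1, VWF and ESAM, which include the genes that define an endothelial cell most strictly, had 1 to 48 counts. They are therefore called the listed genes, and no endothelial population is named.

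The libraries came from cardiomyocytes derived from RUES2, an established human embryonic stem cell line of wild-type genotype, kept in RPMI medium with B27 and insulin. At day 50 the cells were placed for 3 days on electrospun fibre scaffolds. The control scaffold was 8% polyvinyl alcohol, which does not conduct electricity, and is called PVA. The other was 9.75% PEDOT:PSS/PVA, a blend of polyvinyl alcohol with a polymer mixture that conducts electricity, and is called PEDOT. Each scaffold had 3 biological replicates with 2 technical libraries each. All samples share the 1 cell line, the medium and the time on the scaffold. No label states that replicates were separate differentiations, so a p-value here speaks for the spread of these samples, which may be technical.

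Endothelial cells line blood vessels and the inner face of the heart. They sense vascular endothelial growth factor through KDR and FLT1 and angiopoietins through TEK with its partner TIE1, and they hold together through junction proteins such as CDH5, PECAM1 and ESAM. Several of these genes are also used outside the endothelium: KDR marks the early mesoderm from which cardiomyocytes are made in culture, and PROCR is found on several other cell types.

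The promoters of the 4 well measured genes are shown because the values below turn on these genes, and because PROCR and EGFL7 varied together between replicates while KDR and FLT1 did not. Each sequence is the 250 bases before the first listed start in RefSeq on GRCh38.p14, read 5′ to 3′ on the gene's strand. Capitals mark GGAA and its reverse complement TTCC, the core letters bound by ETS factors such as ERG and FLI1, which act in endothelial cells. The windows are chr4:55125596-55125845 on the minus strand for KDR, chr13:28495129-28495378 on the minus strand for FLT1, chr20:35171822-35172071 on the plus strand for PROCR, and chr9:136658606-136658855 on the plus strand for EGFL7. The FLT1 start in RefSeq lies just inside the end of the gene in the deposited table.
KDR: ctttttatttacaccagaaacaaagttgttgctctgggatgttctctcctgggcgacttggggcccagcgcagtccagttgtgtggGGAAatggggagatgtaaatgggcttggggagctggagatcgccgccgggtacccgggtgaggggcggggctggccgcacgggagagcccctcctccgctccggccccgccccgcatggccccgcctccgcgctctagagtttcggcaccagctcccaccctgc
FLT1: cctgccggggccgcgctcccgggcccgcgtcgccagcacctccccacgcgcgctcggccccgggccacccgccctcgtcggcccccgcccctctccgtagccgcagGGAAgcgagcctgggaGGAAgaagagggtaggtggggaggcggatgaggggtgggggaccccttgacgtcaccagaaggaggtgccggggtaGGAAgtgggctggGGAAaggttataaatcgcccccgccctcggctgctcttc
PROCR: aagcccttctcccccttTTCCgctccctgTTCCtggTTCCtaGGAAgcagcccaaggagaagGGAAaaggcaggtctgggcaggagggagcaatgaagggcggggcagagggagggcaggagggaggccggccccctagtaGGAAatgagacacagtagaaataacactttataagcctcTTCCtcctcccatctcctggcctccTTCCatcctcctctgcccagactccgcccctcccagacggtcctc
EGFL7: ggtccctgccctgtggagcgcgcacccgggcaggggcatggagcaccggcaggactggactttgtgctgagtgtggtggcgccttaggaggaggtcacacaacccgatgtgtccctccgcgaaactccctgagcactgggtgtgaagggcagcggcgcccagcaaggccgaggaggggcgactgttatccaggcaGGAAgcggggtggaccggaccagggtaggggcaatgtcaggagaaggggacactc

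The PROCR window held 8 matches to the core on either strand. As many were found in 1.7% of the 35116 promoter windows of the same length in the RefSeq table, whose median was 3. FLT1 had 4 matches, and KDR and the EGFL7 window shown had 1 each, a number that 92.7% of windows reached. A second EGFL7 entry had 4, which 34.3% of windows reached. The CpG counts were 17 in KDR, 25 in FLT1, 5 in PROCR and 14 in EGFL7, around a median of 11. TIE1 had 4 matches, and the entries for TEK had 3 and 6. A match to these letters is a description of the window and not a site. Of the 10 genes, 6 had an entry in the table.

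CPM values scale a gene's counts to the library total, adjusted by the TMM factors, and RPKM divides CPM by the gene's exon length in kilobases, which is the scale on which genes are compared with each other. By median RPKM over the 12 libraries the order was EGFL7 at 4.57, FLT1 at 2.86, PROCR at 2.85, KDR at 2.36, TIE1 at 0.162, TEK at 0.107, ESAM at 0.0964, PECAM1 at 0.0441, CDH5 at 0.0278 and VWF at 0.0176. The only neighbours in this order whose library ranges did not overlap were KDR, with a lowest library at 1.61, and TIE1, with a highest library at 0.249. The listed genes thus formed an upper group of 4 and a lower group of 6 in RPKM. PROCR had the widest range of the upper group, from 1.02 to 16.1 RPKM.

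**Figure D1:**
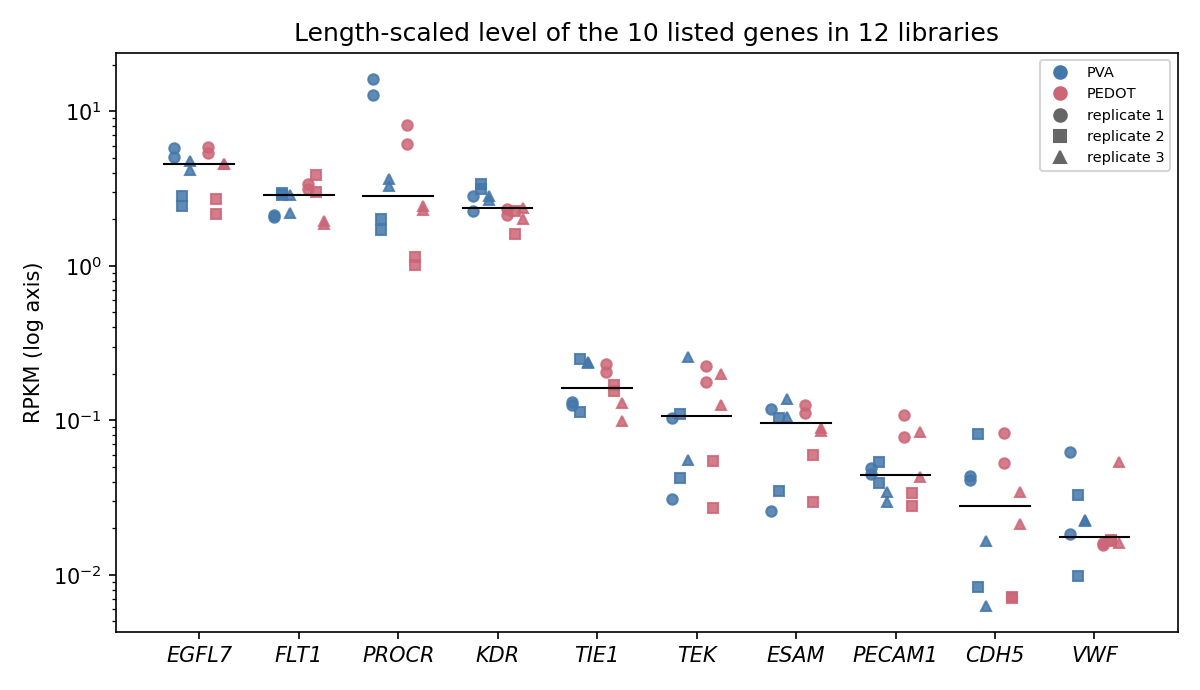
RPKM of each listed gene (vertical log axis) in the 12 libraries, ordered by median (black bars), with blue for PVA, red for PEDOT and the symbol for the replicate number. EGFL7, FLT1, PROCR and KDR lie above 1.01 RPKM in every library, and the other 6 genes lie below 0.257.

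Library totals were 19.1 to 30.95 M assigned counts, and mitochondrially encoded genes took 3.98 to 5.48% of them. The cells carried cardiomyocyte RNA in every library. All 10 genes of a cardiomyocyte list passed the filter, and their summed level was 58090 to 80908 CPM on PVA and 65976 to 93391 CPM on PEDOT. The most abundant were TTN, MYH6 and PLN, at mean levels of 45443, 18457 and 3847 CPM.

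The genes that build endothelial junctions were close to the limit of detection. CDH5 (VE-cadherin, chromosome 16, 66366622 to 66404784, plus strand, hg38) is the adhesion molecule of endothelial adherens junctions. Its summed counts were 12, 14 and 4 in the PVA replicates and 23, 2 and 8 in the PEDOT replicates. Single libraries had 1 to 15 counts with a median of 4. The scaffolds overlapped, and neither stood apart.

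PECAM1 (CD31, chromosome 17, 64319415 to 64413776, minus strand), an adhesion molecule of endothelial cells, platelets and leukocytes, had 17, 17 and 14 counts on PVA and 40, 11 and 23 on PEDOT. PEDOT replicate 1 was the highest sum and PEDOT replicate 2 the lowest, so the PVA sums lay inside the PEDOT range. ESAM (chromosome 11, 124752583 to 124762290, minus strand), a tight junction adhesion molecule, had 9, 10 and 20 counts on PVA and 19, 6 and 12 on PEDOT, again with overlap. The 95% exact Poisson intervals of the counts of the 2 technical libraries overlapped in all 6 pairs for CDH5, PECAM1 and ESAM. Such intervals cover counting error only, and their overlap does not show that 2 libraries agree. CDH5 in PVA replicate 2 had 1 and 13 counts, a ratio of 9.73 in CPM, with intervals that ended at 0.283 and began at 0.263 CPM.

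VWF (von Willebrand factor, chromosome 12, 5948874 to 6124770, minus strand), the clotting protein stored in endothelial Weibel-Palade bodies, had the lowest median RPKM of the 10. Its sums were 18, 11 and 13 counts on PVA and 9, 8 and 17 on PEDOT. The high library of each scaffold, library 3 of PVA replicate 1 and library 1 of PEDOT replicate 3, had 13 counts, while their partners had 5 and 4. A pseudogene, VWFP1, had no count, and reads that match both copies were not counted, so the VWF level is uncertain in the region they share.

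The Tie receptors were also low. TIE1 (chromosome 1, 43300982 to 43323108, plus strand), a receptor that partners TEK, was at 0.866, 1.28 and 1.59 CPM on PVA and at 1.47, 1.08 and 0.766 CPM on PEDOT. TEK (TIE2, chromosome 9, 27109141 to 27230174, plus strand), the angiopoietin receptor, was at 0.346, 0.392 and 0.716 CPM on PVA and at 0.973, 0.194 and 0.787 CPM on PEDOT. For both genes the lowest and the highest PEDOT sums enclosed most of the PVA sums, and the scaffolds overlapped.

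TEK was the only gene of the lower group with technical libraries whose counting intervals did not overlap. Those of TIE1 in PVA replicate 2, with 15 and 44 counts, overlapped only narrowly. For TEK, library 3 of PVA replicate 3 had 32 counts (1.23 CPM) and library 1 of the same replicate 8 counts (0.268 CPM), a ratio of 4.597. Taken as a share of the TEK and TIE1 counts together, TEK made up 28.6%, 23.4% and 31.01% on PVA and 39.8%, 15.3% and 50.7% on PEDOT. The exact 95% binomial interval of the last of these was 38.7 to 62.6%, and that of PEDOT replicate 2 was 7.22 to 27.0%. PEDOT thus had both the lowest and the highest share. In these bulk libraries, fewer cells of a type and less RNA per cell cannot be told apart.

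Further endothelial genes covered a wide range of levels. Of 28 other genes of an endothelial list, 12 did not pass the low-count filter. Among these, CLDN5, the claudin of endothelial tight junctions, and CLEC14A had 8 counts each over all 12 libraries, ECSCR had 5, ROBO4 25, SOX17 49 and CD34 44. Of the 16 that passed, S1PR1 at 89.0 CPM, ENG at 69.1 CPM and NOS3 at 3.94 CPM had the highest mean levels. ERG, an ETS factor of endothelial cells, was at 0.70 CPM and FLI1 at 1.02 CPM. Blood cells share several of the listed genes, and of 13 genes of a blood and platelet list 3 passed the filter, with RUNX1, which other cells also use, at 10.96 CPM, ITGAM at 0.65 CPM and ITGA2B at 0.33 CPM. PTPRC had 3 counts in all, and PF4 and PPBP had none, where a count of 0 allows up to 3 by an upper 95% limit alone.

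The VEGF receptors were among the better measured genes, and KDR had sums that did not overlap between scaffolds. KDR (VEGFR2, chromosome 4, 55078481 to 55125595, minus strand, with 6341 exon bases) is the main signalling receptor for VEGF-A. It was at 16.1, 20.8 and 17.3 CPM in PVA replicates 1, 2 and 3 and at 14.2, 12.1 and 13.96 CPM in the PEDOT replicates. On PVA the mean was 18.1 ± 2.44 CPM, and on PEDOT 13.4 ± 1.12 CPM (SD, n = 3). Each PEDOT sum lay below each PVA sum, while single libraries overlapped, since the lowest PVA library was at 14.5 CPM and the highest PEDOT library at 15.0 CPM.

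The log2 fold change of KDR from PVA to PEDOT was -0.43 ± 0.14 (SE) with the scaffold as the only term in edgeR's quasi-likelihood fit, and it was not called (adjusted p 0.99999, unadjusted 0.0176). Without the replicate number in the model, 0 of the 10 listed genes and 0% of the 21298 tested genes passed an adjusted p of 0.05 in edgeR's test. DESeq2 called 0 as well. An unadjusted p under 0.05 was reached by 190 genes in edgeR and by 126 in DESeq2. Among the listed genes KDR alone had such an unadjusted p. KDR was also the only listed gene with PEDOT sums all below PVA sums, against 2.31% of the tested genes, and none had them all above. Sums that did not overlap in either direction were found in 4.6% of the tested genes. These counts describe genes that were chosen with such results in view, and nothing is read from them.

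When same-numbered replicates were paired, the KDR difference was -0.42 ± 0.11 (SE) with an adjusted p of 0.184 in edgeR's test. The pairs gave -0.18, -0.77 and -0.31, so the direction was the same in 3 of 3 pairs and the size was not even. The paired fit called KDR when pair 1 was left out (adjusted p 0.0117), when pair 3 was left out (0.0273) and with no filter on low counts (0.00567). Without pair 2 the difference was -0.25 with an adjusted p of 0.791. Over all 22 paired alternatives it ran from -0.54 to -0.25. The counting intervals of technical libraries of KDR did not overlap in 2 of 6 pairs. These were at 14.5 and 17.99 CPM in PVA replicate 1 and at 10.2 and 14.3 CPM in PEDOT replicate 2.

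FLT1 (VEGFR1, chromosome 13, 28300346 to 28495145, minus strand, with 12565 exon bases) binds VEGF-A tightly, and its soluble form acts as a trap for the ligand. FLT1 was at 26.5, 36.5 and 31.6 CPM on PVA and at 41.1, 42.9 and 24.0 CPM on PEDOT. PEDOT replicates 1 and 2 were the highest sums and PEDOT replicate 3 the lowest, so the scaffolds overlapped. The means were 31.5 ± 4.99 and 35.99 ± 10.4 CPM (SD, n = 3).

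The paired log2 difference of FLT1 was 0.16 ± 0.13 (SE), with pairs at 0.63, 0.23 and -0.39, and it was not called (edgeR adjusted p 0.838). Leaving out pair 3 gave 0.43 and a call (0.00955), and no other paired alternative did. Counting intervals of technical libraries did not overlap in PVA replicate 3, at 27.7 and 35.98 CPM, and in PEDOT replicate 2, at 37.7 and 48.9 CPM.

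The balance of KDR and FLT1 covered a wider range on PEDOT than on PVA, a difference that was not tested. Of the counts of both genes together, KDR made up 37.7%, 36.3% and 35.5% in the PVA replicates. In the PEDOT replicates it made up 25.7%, 22.1% and 36.8%. PEDOT replicates 1 and 2 were the low ones, with exact 95% binomial intervals of 24.1 to 27.3% and 20.5 to 23.7%, and PEDOT replicate 3, at 34.5 to 39.1%, lay among the PVA values. The shares of the scaffolds overlapped through that replicate. They are shares of counts, so the greater exon length of FLT1 lowers them, alike in all samples only if its mix of transcripts is the same. That mix was not examined. Over the 12 libraries, log2 CPM of KDR and FLT1 had a Pearson correlation of -0.02, given as a description.

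Ligands and co-receptors of these receptors were present at levels that passed the filter in 8 of 8 cases, and 0 of 8 were called in the paired fit in either direction, with 5 below 0 and 3 above. VEGFA, the main ligand, was at 390 ± 49.5 CPM on PVA, while PEDOT samples averaged 466 ± 64.7 CPM (SD, n = 3), with a paired difference of 0.25 ± 0.08 (SE) and an adjusted p of 0.337 in edgeR's test. VEGFB was at a mean of 56.2 CPM, VEGFC at 5.61, VEGFD at 1.82 and PGF at 0.36 CPM. The co-receptors NRP1 and NRP2 were at 526 and 628 CPM, and FLT4, the receptor of lymphatic endothelium, was at 0.35 CPM. The paired median of the list was -0.06, beside -0.004 over all tested genes.

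A list of angiopoietins and related genes had 3 tested members. These were ANGPT1, the ligand that activates TEK, at a mean of 11.7 CPM, SVEP1 at 12.4 CPM and PTPRB, a phosphatase that acts on TEK, at 2.32 CPM. Their paired differences were -0.16 ± 0.10, 0.04 ± 0.12 and 0.07 ± 0.18 (SE), and 0 of 3 were called. ANGPT2 and ANGPT4, with 35 and 29 counts over all libraries, were not tested.

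PROCR was the listed gene with the largest differences between samples, and the only one called in the paired scaffold fit. PROCR (chromosome 20, 35172072 to 35216240, plus strand, with 1697 exon bases) encodes the endothelial protein C receptor, which presents protein C to the thrombin and thrombomodulin complex. It was at 24.3, 3.20 and 5.87 CPM in PVA replicates 1, 2 and 3 and at 12.3, 1.81 and 4.04 CPM in the PEDOT replicates. Replicate 1 was the highest on each scaffold, replicate 2 the lowest, and each PEDOT sum was below the PVA sum of its number. The scaffolds overlapped as groups, with means of 11.1 ± 11.5 and 6.06 ± 5.54 CPM (SD, n = 3).

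With the replicate number in the model, PROCR was 1.73-fold lower on PEDOT, a log2 difference of -0.79 ± 0.12 (SE) with an adjusted p of 0.0158 in edgeR's test. The pairs gave -0.98, -0.81 and -0.53, lower in 3 of 3. The paired fit called 0.268% of the tested genes, 0.197% as lower, beside 1 of the 10 listed genes. Without the replicate number the PROCR difference was -0.87 ± 0.91 (SE, adjusted p 0.99999), and leaving out PVA replicate 1 from that fit turned it to 0.42.

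The PROCR call did not hold under every alternative, while its direction did in the paired ones. It was called in 13 of 22 paired alternatives, with log2 differences from -0.92 to -0.66. It was not called without pair 1 (adjusted p 0.106), without pair 2 (0.108), without library 3 of PVA replicate 1 (0.0516), or without library 2 or 3 of PEDOT replicate 1 (0.0541 and 0.0963). The same held with upper-quartile scaling (0.0853), with genes of a mean CPM of at least 1 only (0.0681), and with the lower- or the higher-numbered technical libraries alone (0.105 and 0.101). In replicate 1 of each scaffold the technical libraries had counting intervals that did not overlap. They were at 21.8 and 27.4 CPM on PVA and at 10.5 and 13.9 CPM on PEDOT, and even there the scaffolds did not overlap. MMP24OS, which had 12249 counts, lies over PROCR on the other strand, and counting was stranded.

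**Figure D2:**
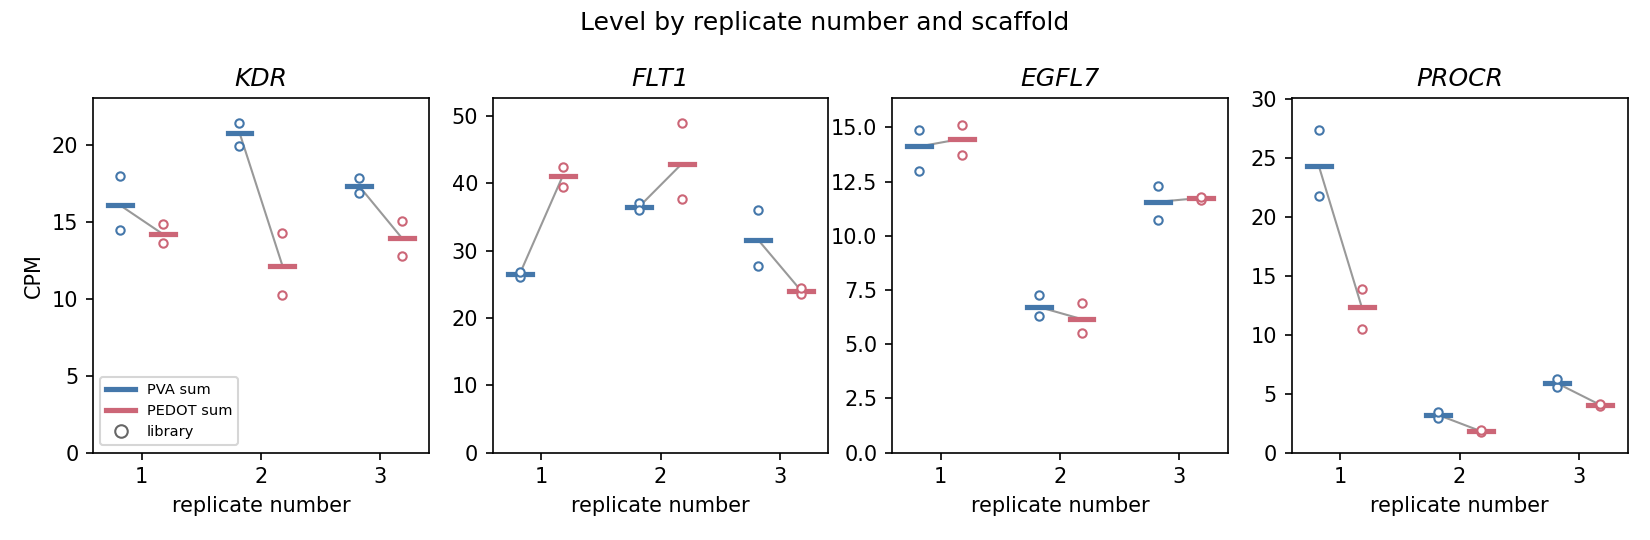
CPM (vertical axes from 0) of KDR, FLT1, EGFL7 and PROCR by replicate number, with bars for the sum of technical libraries, circles for single libraries, blue for PVA, red for PEDOT and grey lines joining same-numbered sums. KDR and PROCR are lower on PEDOT in every pair, PROCR is highest in replicate 1 at 24.3 and 12.3 CPM, and EGFL7 follows the replicate number at like levels on both scaffolds.

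Genes that work with PROCR were measured in 8 of 8 cases, and 0 of 8 were called for the scaffold in the paired fit, with 6 below 0. PROS1 (protein S, the cofactor of activated protein C) was at a mean of 123.4 CPM with a paired difference of -0.30 ± 0.07 (SE) and an adjusted p of 0.12 in edgeR's test. PLAT, tissue plasminogen activator, was at 61.2 CPM and -0.41 ± 0.12 (0.256). THBD, thrombomodulin, was at 7.34 CPM and -0.22 ± 0.12 (0.707). Of the 2 genes above 0, F3 was at 20.0 CPM and 0.39 ± 0.09 (0.119), higher in 3 of 3 pairs. The paired median of these 8 genes was -0.26.

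EGFL7 (chromosome 9, 136658856 to 136672678, plus strand, with 2564 exon bases), a secreted protein of the vessel wall whose intron holds the microRNA gene MIR126, had the highest median RPKM of the 10. It was at 14.1, 6.72 and 11.6 CPM on PVA and at 14.5, 6.16 and 11.7 CPM on PEDOT. Each replicate number had nearly the same level on both scaffolds, with replicate 2 low on each. The means were 10.8 ± 3.76 and 10.8 ± 4.24 CPM (SD, n = 3), and the paired log2 difference was -0.02 ± 0.10 (SE, edgeR adjusted p 0.983). The counting intervals overlapped in all 6 of its technical pairs. MIR126 itself had 0 counts, which allows up to 3 by counting error alone, as an upper 95% limit with no lower limit. Whether these total RNA libraries capture a microRNA was not examined.

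Across the 10 genes the scaffold differences had no common sign. The median of the log2 differences was -0.04 without the replicate number, with 6 below 0 and 4 above, and -0.06 in the paired fit, with 7 below and 3 above, beside -0.006 and -0.004 over all tested genes. In the lower group the paired differences were 0.52 ± 0.39 for PECAM1, -0.03 ± 0.60 for CDH5, 0.35 ± 0.39 for TEK, -0.18 ± 0.30 for TIE1, -0.31 ± 0.46 for VWF and -0.08 ± 0.45 for ESAM (SE). None of these 6 had 3 pairs of the same direction. Pair 1 was above 0 for all of them but VWF, at 0.62 to 1.39, and pair 2 was below 0 for all 6, at -2.04 to -0.24.

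**Figure D3:**
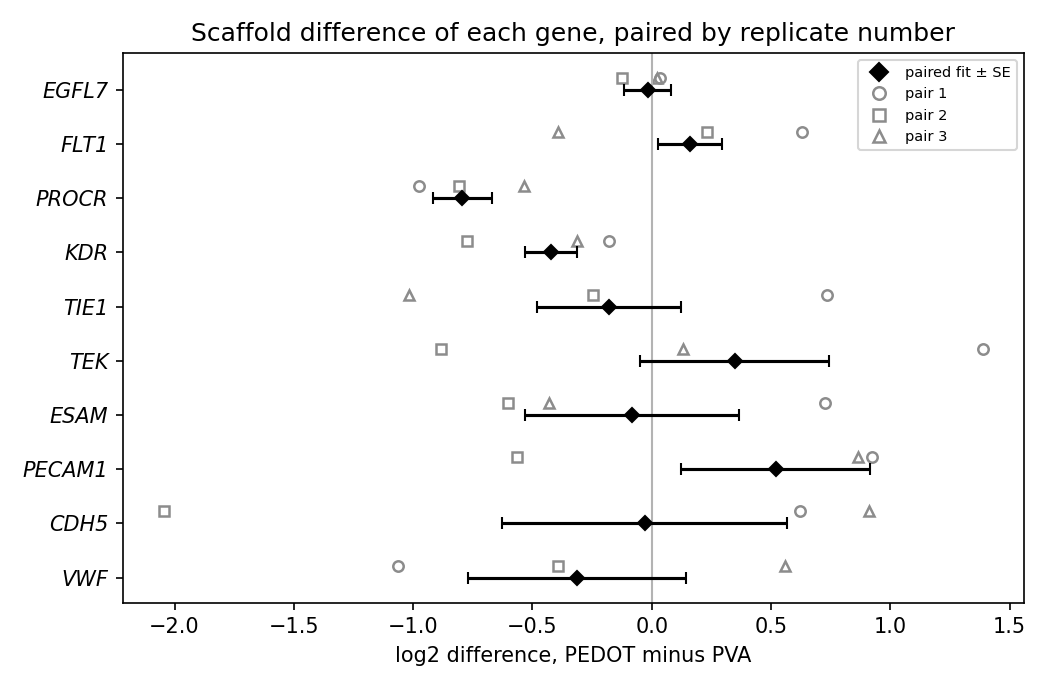
Log2 difference of PEDOT minus PVA (horizontal axis) for each listed gene, ordered by median RPKM, with black diamonds and bars for the paired fit ± SE and grey symbols for the 3 same-numbered pairs. PROCR and KDR have all pairs below 0, while each of the other 8 genes has pairs on both sides.

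The replicate number separated PROCR and EGFL7 but not KDR. In the fit with scaffold and replicate number, the test of the replicate number called 2 of the 10 listed genes and 31.8% of the tested genes. PROCR averaged 18.3, 2.503 and 4.96 CPM in replicates 1, 2 and 3, so replicate 1 was 7.32-fold above replicate 2 and 3.70-fold above replicate 3. The log2 differences were -2.85 ± 0.16 for replicate 2 against 1 and -1.84 ± 0.14 for 3 against 1 (SE, edgeR adjusted p 1.34e-08). EGFL7 averaged 14.3, 6.44 and 11.7 CPM, with log2 differences of -1.15 ± 0.12 and -0.30 ± 0.12 (adjusted p 2.00e-05 in edgeR's test).

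KDR averaged 15.1, 16.5 and 15.7 CPM in the 3 replicate numbers (edgeR adjusted p 0.872), and TIE1 1.17, 1.18 and 1.18 CPM (0.999). FLT1 averaged 33.8, 39.7 and 27.8 CPM (0.0759). FLT1 and TEK were called for the replicate number in edgeR's test with no filter on low counts, at adjusted p 0.000103 and 0.0140, which made 4 of 10, where that fit called 19.4% of 39687 genes. The remaining 4 genes, PECAM1, CDH5, VWF and ESAM, were not called, at levels where few counts were available.

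Over the 12 libraries, log2 CPM of EGFL7 and PROCR had a Pearson correlation of 0.83. Technical libraries come from the same replicate, so this is a description of how both genes follow the replicate number. FLT1 had correlations of -0.45 with EGFL7 and -0.32 with PROCR, and KDR of -0.02 with EGFL7 and 0.17 with PROCR. The genes whose log2 CPM was most like PROCR among 15684 with a mean CPM of at least 1 were ARF4, SELENON, SLCO5A1, ACTN1 and SCARA3, at Pearson correlations of 0.98 over the 12 libraries. Those most like KDR were ABCF2 at 0.93, ILF2 at 0.91, and PHF23 and STAT5B at 0.90. Those most like the mean of CDH5, PECAM1 and TIE1, a pattern that rests on few counts, were YIPF2 at 0.89, AC019080.5 at 0.85, NAA80 at 0.84, UBE2V2 at 0.82 and VDR at 0.81.

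Markers of other cell types also differed between replicate numbers, and not all in the direction of PROCR and EGFL7. All 10 fibroblast genes were called for it, and their summed level was 3403 to 7059 CPM in replicate 1, 713 to 996 in replicate 2 and 2836 to 3807 in replicate 3; COL1A1, COL3A1 and COL1A2 were the most abundant, at means of 1387, 954 and 744 CPM. All 10 smooth muscle and pericyte genes were called too, at 2095 to 2614, 1220 to 1560 and 1676 to 2304 CPM in sum. All 8 protein C and coagulation genes and 3 of 3 tested genes of the angiopoietin list were called for the replicate number. So were 3 of 8 VEGF genes and 11 of 16 endothelial genes. These calls are for either direction. In the fibroblast list POSTN was higher in replicate 2 than in replicate 1, by 1.55 on the log2 scale. The endothelial list was lower in sum in replicate 1, at 126 to 147 CPM, than in replicate 2, at 188 to 198 CPM. That sum was mostly S1PR1 and ENG, at log2 differences of 0.34 and 1.09 for replicate 2 against 1. The median difference of the 16 tested genes for replicate 2 against 1 was -0.44, in the direction of PROCR and EGFL7. For replicate 3 against 1 the median was 0.20, in the other direction, and the sum in replicate 3 was 184 to 214 CPM. Of the cardiomyocyte genes 8 of 10 were called, and their sum was 58090 to 68244 CPM in replicate 1 and 74058 to 93391 CPM in replicate 2. The part of these lists in the PROCR and EGFL7 values was not tested.

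Within pair 1 the fibroblast list and PROCR differed in direction between scaffolds. The list's libraries were at 3403 and 4073 CPM on PVA and at 6454 and 7059 CPM on PEDOT, while PROCR was at 21.8 and 27.4 CPM on PVA and at 10.5 and 13.9 CPM on PEDOT. In pairs 2 and 3 the list's libraries overlapped between scaffolds. Pair 2 was at 807 and 829 CPM on PVA and at 713 and 996 CPM on PEDOT. Pair 3 was at 2836 and 3723 CPM on PVA and at 3807 and 3458 CPM on PEDOT. In the paired fit 0 of 10 fibroblast genes were called, with 8 above 0 and a median of 0.34. Of the smooth muscle list, ACTA2 at -0.40 ± 0.07 (SE, edgeR adjusted p 0.0334) and RGS5 at -0.46 ± 0.06 (0.00795) were called lower and ABCC9, at a mean of 208 CPM, was not called. ACTA2 is a smooth muscle actin and RGS5 a pericyte marker. They were lower in the same pairs as PROCR and KDR, and their part in those values was not tested. The whole smooth muscle list had 6 genes below 0 and 4 above in the paired fit, with a median of -0.07.

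**Figure D4:**
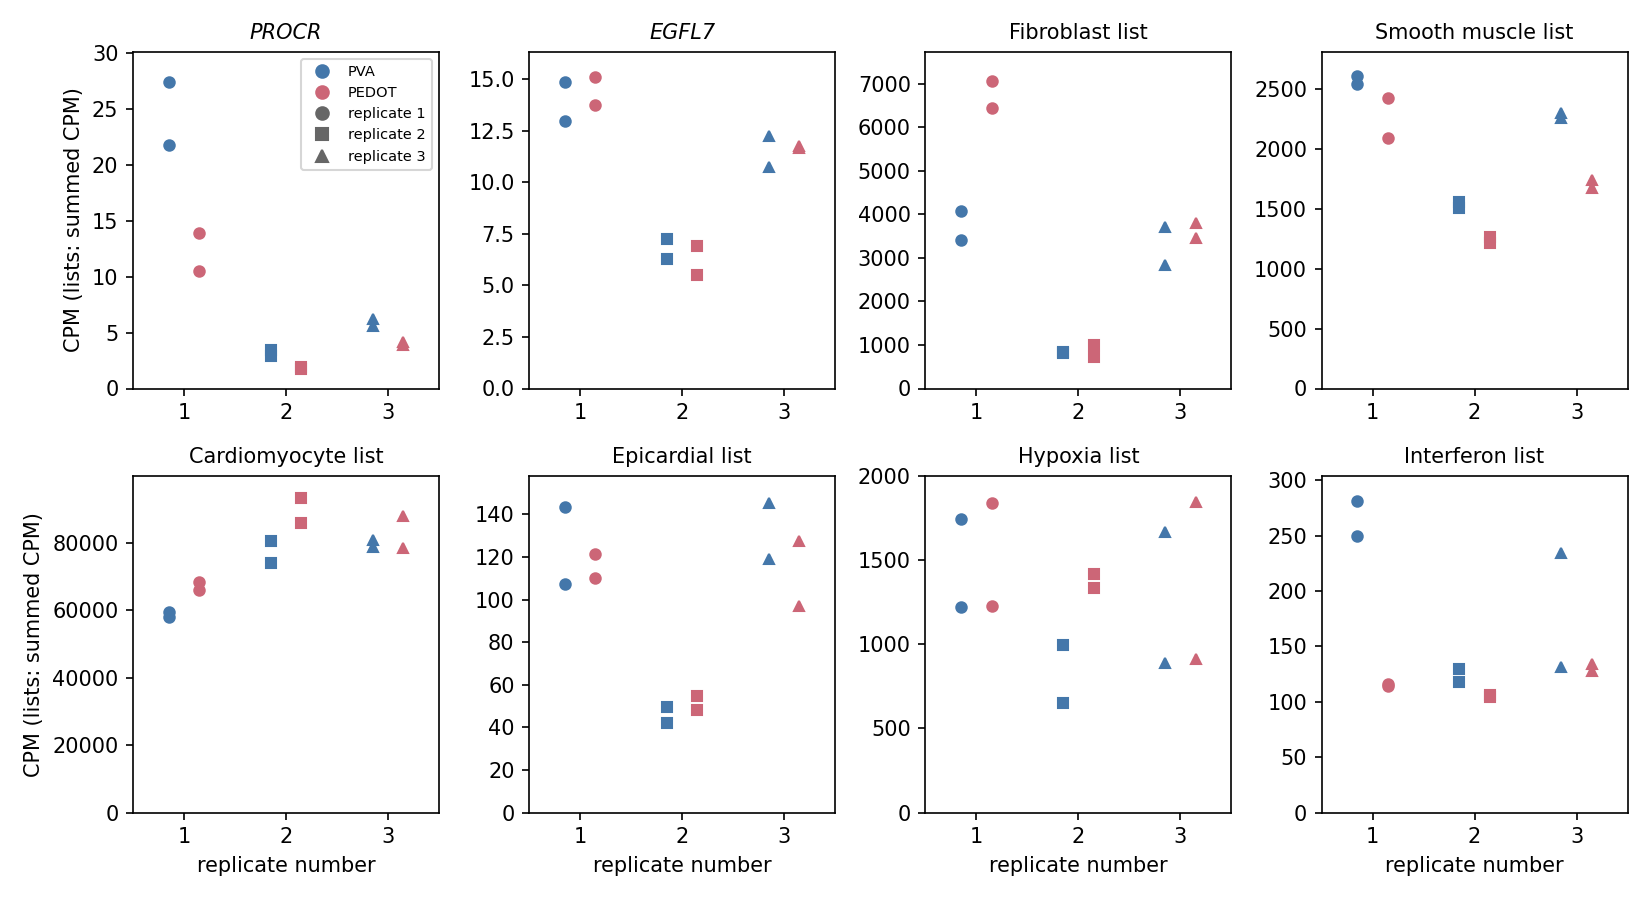
CPM of PROCR and EGFL7 and summed CPM of 6 gene lists (vertical axes from 0) in each library by replicate number, with blue for PVA, red for PEDOT and the symbol for the replicate number. Fibroblast and epicardial sums are lowest in replicate 2, as PROCR and EGFL7 are, while the fibroblast sum of replicate 1 is higher on PEDOT, where PROCR is lower.

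Other lists were read beside the scaffold values of PROCR and KDR. Of the interferon response genes 8 of 10 were called lower on PEDOT in the paired fit (MX1, OAS1, OAS2, OAS3, ISG15, IFI44, RSAD2 and IFIT3), with paired differences from -2.74 for OAS1 to -0.59 for IFIT3, while IFIT1 at 55.5 CPM and IFI6 at 26.9 CPM, the most abundant, were not. The hypoxia response list had 0 of 10 called and 10 above 0, with a median of 0.31, and was led by EGLN3, PDK1 and BNIP3 at 362, 295 and 275 CPM. The cell cycle list had 0 of 10 called and 10 below 0, with a median of -0.37, and was led by MKI67, TOP2A and PCNA at 51.6, 51.5 and 34.8 CPM. Its direction was not the same in all pairs. In pair 1 its libraries summed to 253 and 313 CPM on PVA and to 129 and 150 CPM on PEDOT. In pair 3 they summed to 307 and 319 CPM on PVA and to 380 and 324 CPM on PEDOT. The part of these lists in the scaffold values of the listed genes was not tested.

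Genes of endothelial activation had 1 of 4 tested members called, CCL2, a chemokine made by endothelial cells and by many others, at -0.66 ± 0.11 (SE, edgeR adjusted p 0.0293). VCAM1 and ICAM1, adhesion molecules for leukocytes, were at 109.8 and 16.4 CPM and were not called, and SELE and SELP, the endothelial selectins, had 7 and 9 counts in all. Endocardial genes had 0 of 7 called, led by CGNL1, SMAD6 and ADGRG6 at 198, 186 and 19.4 CPM. Arterial and Notch genes had 0 of 8 called, led by UNC5B, JAG1 and HEY1 at 208, 81.2 and 26.3 CPM. In the same list NOTCH4 was at 0.83 CPM and DLL4 at 0.25 CPM. Venous and lymphatic genes had 0 of 5 called, led by PROX1, PDPN and CCBE1 at 130.1, 98.9 and 60.3 CPM, and LYVE1 had 63 counts in all.

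Of the remaining cell type lists, 0 of 7 epicardial genes were called for the scaffold, led by WT1, KRT19 and TBX18 at 41.3, 40.3 and 12.1 CPM, and 0 of 5 endoderm genes, led by EPCAM, APOA1 and ALB at 3.64, 2.19 and 0.79 CPM. The blood list had 0 of 3 called, and 0 of 10 cardiomyocyte genes were called in the paired fit. The 16 tested genes of the further endothelial list had 0 called in the paired fit, 6 below 0 and 10 above, and a median of 0.05.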

How the data were processed

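Ribodepleted total RNA was sequenced, per the labels' protocols. The deposited values are unnormalized counts of read pairs for each gene name, made by the authors with featureCounts 2.0.1 in paired-end, reversely stranded mode on GENCODE 33, per the file headers. Multi-mapping and multi-overlapping reads were not counted, since the command in the header sets no option for them. The submitters' processing notes name STAR and hg38, and the aligner's version is not given in the sources used here.

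The 2 technical libraries of each biological replicate were summed to 6 sums. The filterByExpr rule (at least 10 counts, 15 in total) kept 21298 genes, which were scaled with TMM and tested with edgeR 4.0.16 under R 4.3.3 (quasi-likelihood, two-sided, Benjamini-Hochberg over all of them, threshold 0.05) in a model of scaffold alone. Standard errors were taken as the log2 fold change over the root of the F statistic. Log2 CPM used a prior count of 2. Across genes, the deviations from the scaffold mean of sums with the same number had correlations of 0.678, 0.703 and 0.503, and those with different numbers of -0.609 to -0.005, so the numbers were taken to pair the samples. No label states what a number shares. A second model with a block for replicate number, called the paired fit, therefore stands beside it. DESeq2 1.42.0, other scalings and filters, and single replicates, pairs and libraries left out were tried. The procedure was tested on simulated data.

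The 10 genes and 17 companion lists were chosen with earlier results of these data known. All 10 are named, with the 3 most abundant tested genes of each list and those called in the paired fit. All VEGF and angiopoietin ligands and the 5 genes of most like pattern are named too. Other genes named (ERG, FLI1, THBD, F3, POSTN, NFATC1, NPR3, NRG1, TMEM100, NOTCH4, DLL4, and genes below the filter) were added after their values were seen. MIR126, VWFP1 and MMP24OS are named for their position or likeness to a listed gene. Some results under these rules are not reported here.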

Additional observations from a re-analysis of the deposited data

Results flagged for a closer look

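In 20 sets of 6 libraries (10 genes on each scaffold), 2 had a library far from the others by Dixon's 95% critical value, which about 1 in 20 sets of independent values would pass by chance. The 6 libraries are 3 technical pairs, so they are not independent. TEK in library 3 of PVA replicate 3 was at 1.23 CPM, with the next PVA library at 0.532 CPM. VWF in library 1 of PEDOT replicate 3 was at 0.561 CPM, with the next PEDOT library at 0.175 CPM. These libraries held 32 counts of TEK and 13 of VWF.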

How the results depend on the processing

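With the replicate block, the number of tested genes called for the scaffold went from 0 to 57 and the number of listed genes called from 0 to 1. Across fits that left out a replicate, a pair or a library, with or without the block, the counts ran from 0 to 284 genes and from 0 to 3 listed genes. With no filter on low counts the replicate number called 4 in place of 2 listed genes and 7702 of 39687 in place of 6776 of 21298 genes. DESeq2 gave no adjusted p for the replicate number for CDH5, VWF and ESAM. Paired log2 differences of the lower group, none called, ran over the alternatives from 0.22 to 0.98 for PECAM1, -0.45 to 0.87 for CDH5, -0.27 to 0.80 for TEK, -0.65 to 0.25 for TIE1, -0.88 to 0.16 for VWF and -0.58 to 0.17 for ESAM. All but PECAM1 took both signs, and the cause was not tested. The block changed the call of no listed gene other than PROCR. The paired alternatives for single genes with other scalings, filters or technical libraries were chosen after seeing the data. These 6 genes had medians of 4 to 25 counts a library, and standard errors of 0.30 to 0.60 in the paired fit.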
